A study of Mus musculus with 6 samples.

Results

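The genes described here encode the working parts of the lysosome: its cathepsin proteases, its other acid hydrolases and their activator proteins, a few lysosomal membrane proteins, the transcription factors of the TFEB family, and the proton pump (V-ATPase) that acidifies the organelle. They were chosen by name, as 54 listed genes, and not by a rule on their measured values. Earlier results of these data were known when the list was made. A gene was taken as measured where at least 1 probe set of the array was annotated to it alone, and the probe set with the highest average signal stood for the gene. By this rule 48 of the 54 were measured, among 17097 measured genes in all. Neu1, Idua, Cd63, Atp6v0c, Atp6v1c1 and Atp6v1g1 had no such probe set and were not analysed here.

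The samples were total RNA from the liver left in mice killed 12 h after partial hepatectomy, an operation that takes away 70% of the organ and sets off its regrowth. There were 3 wildtype mice, labelled C57Bl/6, and 3 mice labelled DeltaKlf6, in which the zinc-finger transcription factor Klf6 was deleted in hepatocytes. Every animal had the operation, no unoperated liver was analysed here, and the arrays cover 3 of the 6 animals per group in the overall study. The sources used here give neither the promoter that drives the deletion nor the age of the mice. Whole liver also holds macrophages, endothelial cells and other cells in which Klf6 was not targeted. In such bulk tissue fewer cells of a type and less RNA per cell cannot be told apart.

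Lysosomal hydrolases are made in the endoplasmic reticulum, tagged in the Golgi and delivered to the lysosome, where they work at acid pH. The V-ATPase makes that acid: its cytosolic V1 sector splits ATP and its membrane V0 sector carries the protons. TFEB and its relatives TFE3 and MITF bind a short DNA element, the CLEAR element, near the starts of many lysosomal genes and are held in the cytoplasm by the kinase mTORC1 when nutrients are plentiful. In liver, lysosomes serve autophagy in hepatocytes and digest what Kupffer cells, the resident macrophages, take up.

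The promoters are shown first. The genes were chosen by name and not by this element. The element is, however, known from lysosomal genes, so a high share among them was to be anticipated and is no independent result. RefSeq promoters (GRCm38.p6, from 250 bases before to 50 after each annotated start) were found for 47 of the 54 genes. The letters CACGTG, the core of the CLEAR element, stood in a promoter of 16 of these 47 (34%), against 2187 of 27025 genes (8.09%) over all promoters of the same length. The longer form TCACGTGA, which contains the first, stood in 6 of 47 (12.8%), against 304 genes (1.12%). Both motifs read the same on either strand. The following stretches lie upstream of the start, 5′ to 3′ on the gene's strand, with the motif in capitals. They were picked to show the repeated core of Lamp1, the paired long and short forms of Mcoln1 and Ctsd, and the single core of Glb1 and Naglu. Lamp1 lies at chr8:13159074-13159160 (+), Mcoln1 at chr8:3500422-3500505 (+), Ctsd at chr7:142387894-142388077 (−), Glb1 at chr9:114401004-114401061 (+) and Naglu at chr11:101069995-101070052 (+).
Lamp1: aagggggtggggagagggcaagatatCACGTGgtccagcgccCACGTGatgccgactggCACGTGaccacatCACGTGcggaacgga
Mcoln1: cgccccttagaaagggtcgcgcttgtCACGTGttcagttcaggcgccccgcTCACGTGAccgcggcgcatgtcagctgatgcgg
Ctsd: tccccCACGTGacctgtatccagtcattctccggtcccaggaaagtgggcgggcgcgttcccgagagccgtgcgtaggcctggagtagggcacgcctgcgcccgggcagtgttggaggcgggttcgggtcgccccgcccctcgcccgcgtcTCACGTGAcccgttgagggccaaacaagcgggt
Glb1: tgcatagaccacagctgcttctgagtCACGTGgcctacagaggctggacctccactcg
Naglu: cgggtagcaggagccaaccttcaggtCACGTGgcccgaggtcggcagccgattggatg

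Shorter sites are given for Sgsh and Arsa, the lower of the genes whose groups did not overlap, and for the pump subunit Atp6v0d1. They lie at chr11:119355526-119355547 (−), where the annotated span of the neighbouring gene Slc26a11 also runs, chr15:89477427-89477448 (−) and chr8:105566054-105566075 (−). The Atp6v0d1 stretch crosses the start.
Sgsh: ctgccgtgCACGTGaccgtggg
Arsa: ctcagtgtCACGTGttgtctgc
Atp6v0d1: actgcggTCACGTGAgacgcgg

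The core was found in 5 of 10 cathepsin and legumain genes with a promoter here, 6 of 19 other hydrolases and activators, 2 of 5 membrane proteins, 3 of 10 V-ATPase genes and 0 of 3 transcription factors. A match describes the letters in the window and shows neither binding nor control.

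Before the results, several properties of the arrays bear on every direction given below. Values are log2 expression, and the array medians lay between 3.30 and 3.45. The 3 Klf6 probe sets of the array labelled DeltaKlf6 1 were above the wildtype mean by 2.13, 1.82 and 2.12, against the label. On DeltaKlf6 2 they differed from it by -0.87, 0.05 and -0.30, the last 2 of these inside the wildtype range. On DeltaKlf6 3 they differed by -0.86, -0.32 and -1.75, with the value at -0.32 also inside the wildtype range. Whether they lie in the deleted part of the gene is not known here. The array labelled DeltaKlf6 3 had an upper quartile of 5.08, against 5.50 to 5.63 on the other 5 arrays. The 3′ to 5′ controls, a measure of RNA quality, differed too: the log2 signal of Gapdh's 3′ control probe set exceeded the 5′ one by 4.06 to 4.43 in wildtype, 3.47 and 3.45 in DeltaKlf6 1 and 2, and 4.83 in DeltaKlf6 3. For beta-actin the same difference was 4.86 to 5.39, then 4.22, 3.998 and 5.05. Hepatocyte markers were high throughout, with a median wildtype level of 12.7 over 10 markers.

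No lysosomal gene passed the test between DeltaKlf6 and wildtype. By limma with Benjamini-Hochberg adjustment over all genes, 0 of 48 had an adjusted p under 0.05 (background 0%), and the smallest adjusted p was 0.992. At an unadjusted p under 0.05 there was 1 gene, Sgsh, against 3.69% of all genes. The mean was higher in DeltaKlf6 for 27 genes and lower for 21, so 56.2% were higher, against 48.4% of all genes. The median log2 difference, DeltaKlf6 minus wildtype, was 0.04, against -0.01 over all genes. The median size of difference was 0.21, against 0.20 over all genes and 0.23 over genes at or above the median of all values. No difference in the set exceeded 0.64 in size. The largest over all genes was 2.51, but that is the extreme of 17097 values and not of 48. The groups of 3 arrays did not overlap for 3 of the 48 genes (all genes 9.32%): Asah1 was higher (all genes 3.41%), and Sgsh and Arsa were lower (all genes 5.91%).

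**Figure D1:**
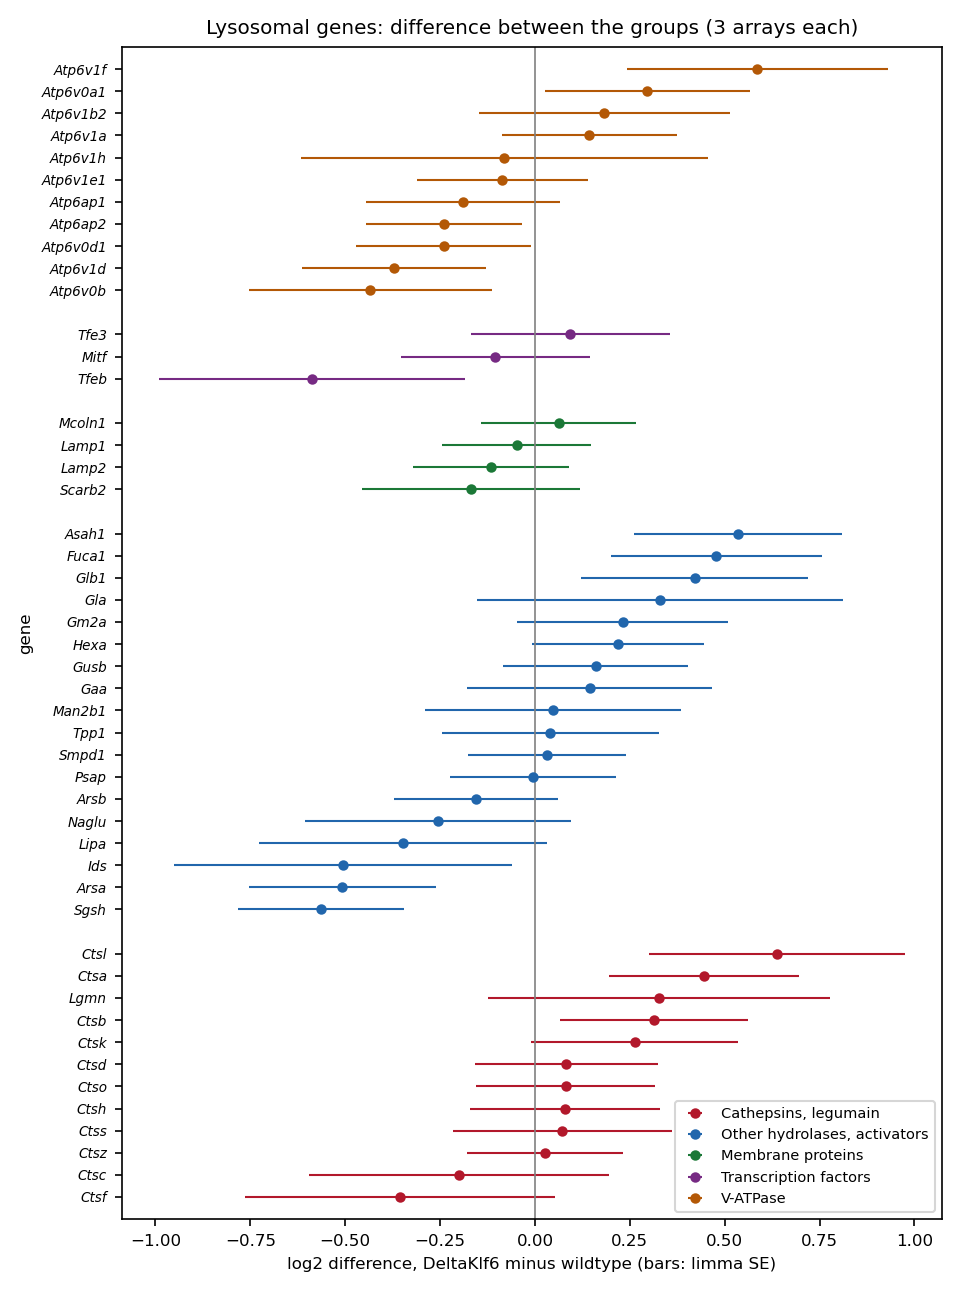
Log2 difference between DeltaKlf6 and wildtype (horizontal axis, DeltaKlf6 minus wildtype) for each of the 48 measured genes, grouped by role; points are differences of means of 3 arrays and bars are the limma standard error. The differences lie between -0.59 (Tfeb) and 0.64 (Ctsl), and none passed the adjusted threshold.

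Within the set the DeltaKlf6 arrays were unlike each other. The median SD of a member was 0.20 in wildtype and 0.40 in DeltaKlf6, against 0.24 and 0.35 over all genes and 0.26 and 0.43 over the 10795 genes at or above the median of all values. The members' spread in DeltaKlf6 was thus near that of these 10795 genes. The 2 sets were not matched for level: the median wildtype level was 8.38 for the members and 6.22 for those genes. Relative to the wildtype mean the median member stood at 0.06 on DeltaKlf6 1, 0.26 on DeltaKlf6 2 and -0.17 on DeltaKlf6 3, while the wildtype arrays stood at -0.08, 0.02 and 0.03. The same 10795 genes stood at -0.01, 0.05 and -0.19 on the DeltaKlf6 arrays, so the value on DeltaKlf6 3 was close to theirs. Above the wildtype mean were 27 of 48 members on DeltaKlf6 1 (56.2%; all genes 47.8%), 33 on DeltaKlf6 2 (68.8%; all genes 48.5%) and 12 on DeltaKlf6 3 (25%; all genes 44.8%). These 3 arrays thus did not deviate in 1 direction, and the group mean averages over unlike values.

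A total of 17 members (35.4%) were above the wildtype mean on DeltaKlf6 1 and 2 and below it on DeltaKlf6 3, a pattern shown by 15.5% of all genes and by 21.6% of those at or above the median of all values. They were Ctsb, Ctsd, Ctsl, Ctss, Lgmn, Gla, Glb1, Gaa, Gusb, Hexa, Man2b1, Gm2a, Scarb2, Atp6v1a, Atp6v1b2, Atp6v1f and Atp6v1h. The opposite pattern was shown by 5 members (10.4%), Tfeb, Atp6v0b, Atp6v1d, Atp6v1e1 and Atp6ap1. It was shown by 13.8% of all genes and by 9.58% of those at or above the median of all values. Ctsa, Asah1 and Fuca1 were above the wildtype mean on all 3 DeltaKlf6 arrays, and Sgsh, Arsa and Atp6ap2 were below it on all 3. Those are 6.25% of members in each direction, against 12.3% and 17.7% of all genes. Among genes at or above the median of all values the shares were 10.4% and 18.1%. These patterns are those of the probe set used for each gene. Other probe sets of some members, Atp6v0b and Atp6ap2 among them, had another order of arrays. Among the DeltaKlf6 arrays, both 3′ to 5′ control differences were also larger on DeltaKlf6 3 than on the other 2, which lay below all wildtype arrays. Against wildtype, DeltaKlf6 3 was above the range for Gapdh only and inside it for beta-actin. The part of RNA quality in the split was not tested.

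The distance from wildtype was counted array by array. On DeltaKlf6 1, 22 members lay above every wildtype array (45.8%; all genes 29%) and 13 below every one (27.1%; all genes 30.9%). On DeltaKlf6 2 there were 27 above (56.2%; all genes 28%) and 11 below (22.9%; all genes 27.6%). On DeltaKlf6 3 the balance was turned, with 8 above (16.7%; all genes 27.2%) and 26 below (54.2%; all genes 35.1%). Of the 48 members 46 were among the 10795 genes at or above the median of all values, which are a closer background. Among those, 32.4% were above and 33% below on DeltaKlf6 1, 34.5% and 25.7% on DeltaKlf6 2, and 18% and 45.7% on DeltaKlf6 3.

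**Figure D2:**
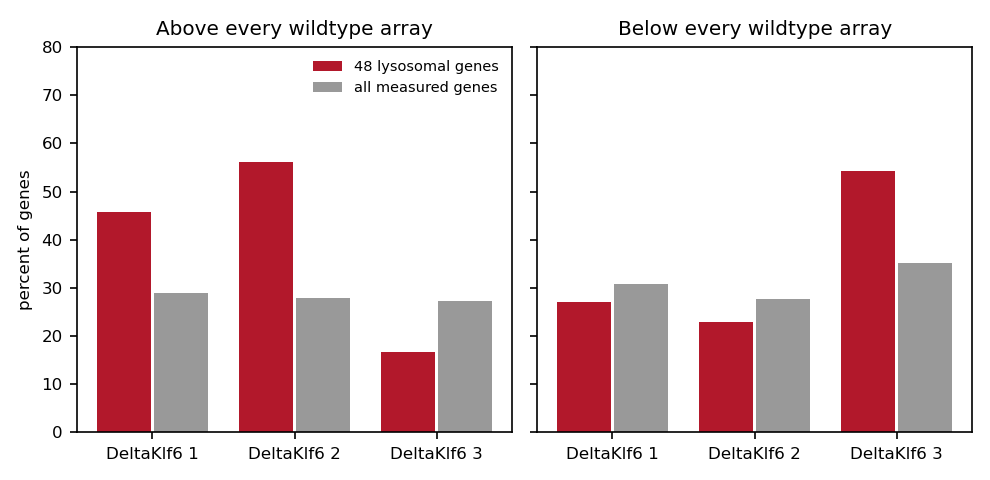
Share of genes (percent) above or below all 3 wildtype arrays on each DeltaKlf6 array, for the 48 lysosomal genes (red) and all measured genes (grey). On DeltaKlf6 1 and 2 more lysosomal genes lie above the wildtype range than below it (45.8% and 56.2% above), and on DeltaKlf6 3 more lie below (54.2%).

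Leaving out 1 DeltaKlf6 array therefore moved the counts. Without DeltaKlf6 3, 25 of 48 members had groups that did not overlap (all genes 25.3%), 18 higher and 7 lower, and 10 members had an unadjusted p under 0.05 (all genes 9.04%). Those 10 were Ctsa, Ctsb, Ctsl, Lgmn, Glb1, Fuca1 and Atp6v1f on the higher side and Tfeb, Atp6v0b and Atp6v1d on the lower. Without DeltaKlf6 2, 9 members did not overlap (all genes 22.3%), 3 higher and 6 lower, and 3 had an unadjusted p under 0.05 (all genes 6.81%): Sgsh, Ids and Lipa. Without DeltaKlf6 1, whose Klf6 signal went against the label, 6 did not overlap (all genes 18.1%) and 0 had an unadjusted p under 0.05 by limma (all genes 4.09%). In each of these fits 0 members passed the adjusted threshold, with smallest adjusted p of 0.412, 0.667 and 0.984. The shares of all genes in these subsets are for either direction. They are not given for the genes at or above the median of all values, the closer background. These subsets each hold 2 DeltaKlf6 arrays, so they describe the arrays and not a genotype difference.

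The cathepsins, proteases that break down proteins in the lysosome, were measured as 11 cathepsins and legumain, the asparaginyl endopeptidase that processes several of them. By mean, 10 of the 12 were higher in DeltaKlf6 and 2 lower, with a median difference of 0.08. None passed the test, and 0 had an unadjusted p under 0.05 by limma. The class median was 0.35 on DeltaKlf6 1, 0.40 on DeltaKlf6 2 and -0.11 on DeltaKlf6 3, and -0.13, 0.16 and -0.06 on the wildtype arrays. Without DeltaKlf6 2, 5 of 12 were higher and the class median was -0.03. Without DeltaKlf6 3, 12 of 12 were higher and the median was 0.26.

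Ctsl, the cysteine protease cathepsin L, had the largest difference of the set in the fit of all 6 arrays. It was at 10.58, 10.95 and 10.82 in wildtype and at 12.03, 11.50 and 10.73 in DeltaKlf6, means of 10.8 ± 0.19 and 11.4 ± 0.66 (SD, n = 3). The log2 difference was 0.64 (SE 0.34), 1.56-fold, with an unadjusted limma p of 0.0957 and an adjusted p of 0.992. DeltaKlf6 1 and 2 lay above every wildtype array and DeltaKlf6 3 inside the wildtype range, so the groups overlapped. Without DeltaKlf6 1 the difference was 0.33 and without DeltaKlf6 3 it was 0.98, and there Tfeb differed by more, at -1.05. The second Ctsl probe set had the same sign, at 0.79.

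Ctsa encodes cathepsin A, which also shields beta-galactosidase and neuraminidase in a complex. It was at 7.17, 7.46 and 7.32 in wildtype and 7.90, 8.05 and 7.33 in DeltaKlf6, a difference of 0.44 (SE 0.25; unadjusted limma p 0.114). DeltaKlf6 3 was within the wildtype values and the other DeltaKlf6 arrays were above them. A second, dim Ctsa probe set had the opposite sign, at -0.41, and with both averaged the difference was 0.016. Glb1, the beta-galactosidase of that complex, was at 4.45, 4.91 and 4.81 in wildtype and 5.12, 5.67 and 4.64 in DeltaKlf6 (difference 0.42, SE 0.30), the same order of arrays with DeltaKlf6 3 the lowest of its group. Its single core motif is among the stretches above.

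Ctsb, cathepsin B, an abundant cysteine protease of liver, was at 10.23, 10.43 and 10.23 in wildtype and 10.93, 10.70 and 10.19 in DeltaKlf6. The difference was 0.31 (SE 0.25), and the 4 Ctsb probe sets were all higher by mean, by 0.31 to 1.83 (0.80 with probe sets averaged). Again DeltaKlf6 1 and 2 were above all wildtype arrays, and DeltaKlf6 3 was below all of them. Ctsd, the aspartic protease cathepsin D, was at 9.19, 9.26 and 9.26 in wildtype and 9.55, 9.52 and 8.89 in DeltaKlf6, a difference of 0.08 (SE 0.24; limma adjusted p 0.995). Its wildtype arrays differed little from each other (SD 0.038), whereas in DeltaKlf6 the SD was 0.37 and each array lay outside the wildtype range. Its promoter, printed above, holds the long and the short motif.

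Ctsk, cathepsin K, best known from osteoclasts, was at 4.16, 3.84 and 3.80 in wildtype and 4.58, 3.72 and 4.29 in DeltaKlf6 (difference 0.26, SE 0.27). Here DeltaKlf6 2 was the low array of its group. Ctsf, cathepsin F, was at 5.19, 5.77 and 5.31 in wildtype and 5.70, 5.37 and 4.12 in DeltaKlf6 (difference -0.35, SE 0.41). Its lower mean came from DeltaKlf6 3, and without that array the difference was 0.12. Lgmn, with values of 6.33, 7.19 and 6.96 in wildtype and 7.71, 7.62 and 6.12 in DeltaKlf6, followed the order of Ctsb.

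**Figure D3:**
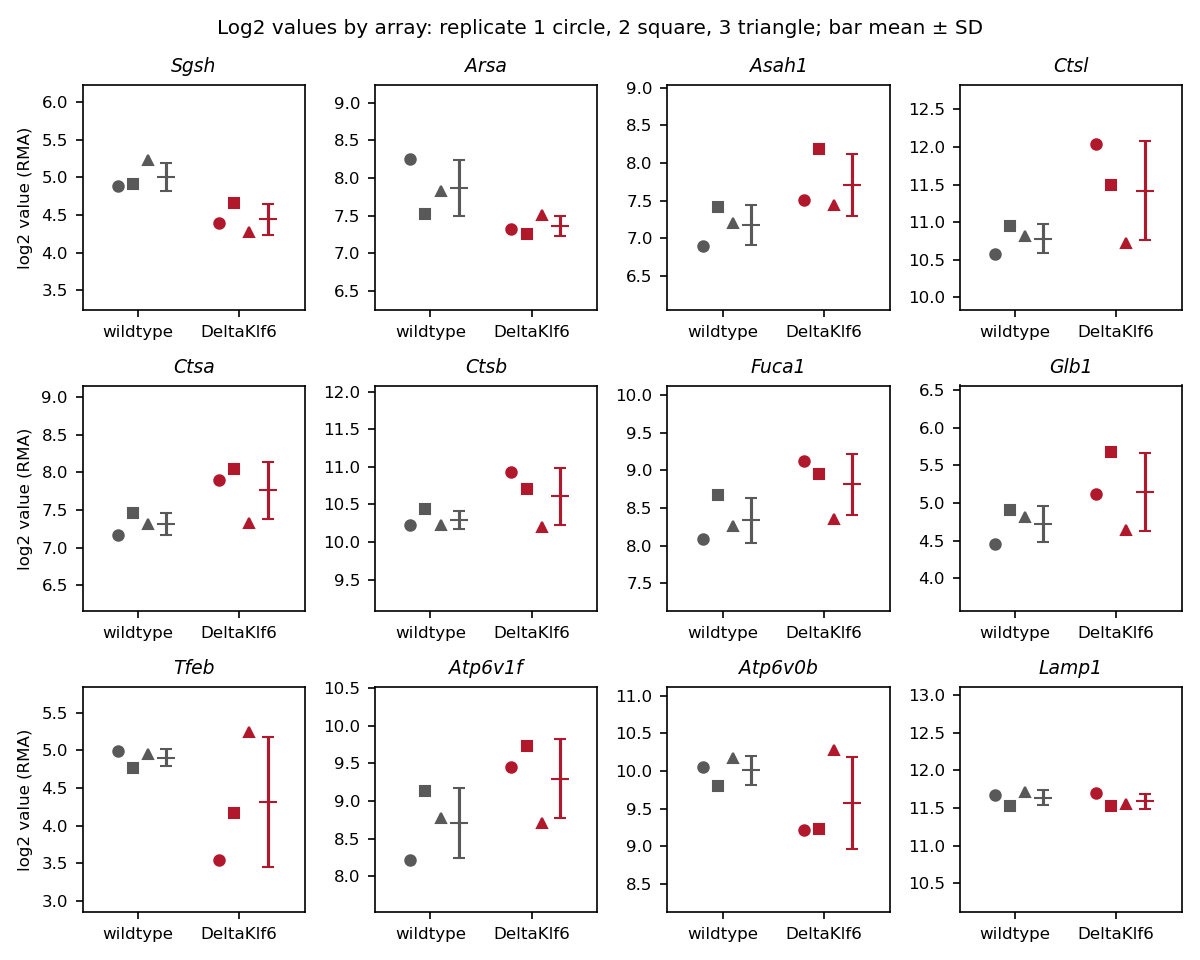
Log2 values (vertical axis) of 12 named members, 1 panel each, in wildtype (grey) and DeltaKlf6 (red); a circle is replicate 1, a square 2 and a triangle 3, and the bar is the mean ± SD of 3 arrays. Ctsl, Ctsb and Atp6v1f have DeltaKlf6 1 and 2 above all wildtype arrays and DeltaKlf6 3 at or below the wildtype mean, while Sgsh has all 3 DeltaKlf6 arrays below wildtype.

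Other hydrolases and their activators cut glycans, sulfated sugars and lipids. Of the 18 measured of 20, 11 were higher by mean and 7 lower, with a median difference of 0.04, and none passed the test. The class median was 0.06, 0.37 and -0.29 on the 3 DeltaKlf6 arrays. Without DeltaKlf6 2 the count turned to 6 higher and 12 lower, with a median of -0.08. Without DeltaKlf6 3 it was 13 higher and 5 lower, with a median of 0.27.

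Sgsh, the sulfamidase that removes sulfate from heparan sulfate, had the smallest p of the set. It was at 4.88, 4.91 and 5.22 in wildtype and 4.39, 4.67 and 4.27 in DeltaKlf6, means of 5.01 ± 0.19 and 4.44 ± 0.20 (SD, n = 3). The difference was -0.56 (SE 0.22), 1.48-fold lower, with an unadjusted limma p of 0.0335 and an adjusted p of 0.992. All 3 DeltaKlf6 arrays lay below all 3 wildtype arrays. Its second probe set differed by 0.16 and was dim (2.67 in wildtype), and with both averaged the difference was -0.20. With probe sets averaged, with dim genes left out, without wildtype 3 or without DeltaKlf6 1, 0 members, Sgsh included, had an unadjusted limma p under 0.05.

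Arsa, arylsulfatase A, which removes sulfate from sulfatide lipids, was at 8.25, 7.52 and 7.83 in wildtype and 7.32, 7.26 and 7.51 in DeltaKlf6. The difference was -0.51 (SE 0.25; unadjusted limma p 0.0738). The groups did not overlap, but the highest DeltaKlf6 array and the lowest wildtype array differed only in the second decimal. Both Sgsh and Arsa act on sulfated substrates, and both carry the core motif just upstream of the start, as printed above. Sumf1, a non-member that encodes the enzyme activating all sulfatases, was also lower by mean (7.46, 7.52 and 7.56 in wildtype, 6.81, 7.20 and 6.55 in DeltaKlf6; difference -0.66, SE 0.23), with groups that did not overlap and a limma adjusted p of 0.992. The other measured sulfatases of the set were Ids, with a difference of -0.51 (SE 0.45), and Arsb, which was dim with a wildtype mean of 2.92 and a difference of -0.16 (SE 0.22). These 4 were grouped after their values were seen.

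Asah1, acid ceramidase, which splits ceramide into sphingosine and a fatty acid, was at 6.90, 7.42 and 7.21 in wildtype and 7.51, 8.19 and 7.44 in DeltaKlf6. The difference was 0.53 (SE 0.27; unadjusted limma p 0.0878), 1.45-fold. It was the member with all DeltaKlf6 arrays above all wildtype arrays. DeltaKlf6 3 and wildtype 2 differed only in the second decimal, however, against a wildtype SD of 0.26. Fuca1, which removes fucose from glycoproteins, was at 8.08, 8.67 and 8.26 in wildtype and 9.13, 8.96 and 8.36 in DeltaKlf6 (difference 0.48, SE 0.28). DeltaKlf6 3 lay inside the wildtype range, and a second, dim probe set differed by -0.21.

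Lipa, lysosomal acid lipase, which frees cholesterol and fatty acids from lipoproteins, was at 8.78, 9.38 and 8.87 in wildtype and 8.16, 9.51 and 8.32 in DeltaKlf6 (difference -0.35, SE 0.38). In this gene DeltaKlf6 2 stood above wildtype and the other DeltaKlf6 arrays below it. Hexa, a subunit of beta-hexosaminidase, was at 8.87, 8.87 and 8.82 in wildtype and 9.25, 9.26 and 8.72 in DeltaKlf6, and Gm2a, its activator for ganglioside substrate, at 8.72, 8.86 and 8.91 and then 9.54, 9.08 and 8.56. Enzyme and activator both had DeltaKlf6 1 and 2 above wildtype and DeltaKlf6 3 below. Psap, the precursor of the saposins, differed by -0.01 (SE 0.22) and Smpd1, acid sphingomyelinase, by 0.03 (SE 0.21), each with probe sets of opposite sign. These last members and Lgmn were chosen after their values were seen.

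**Figure D4:**
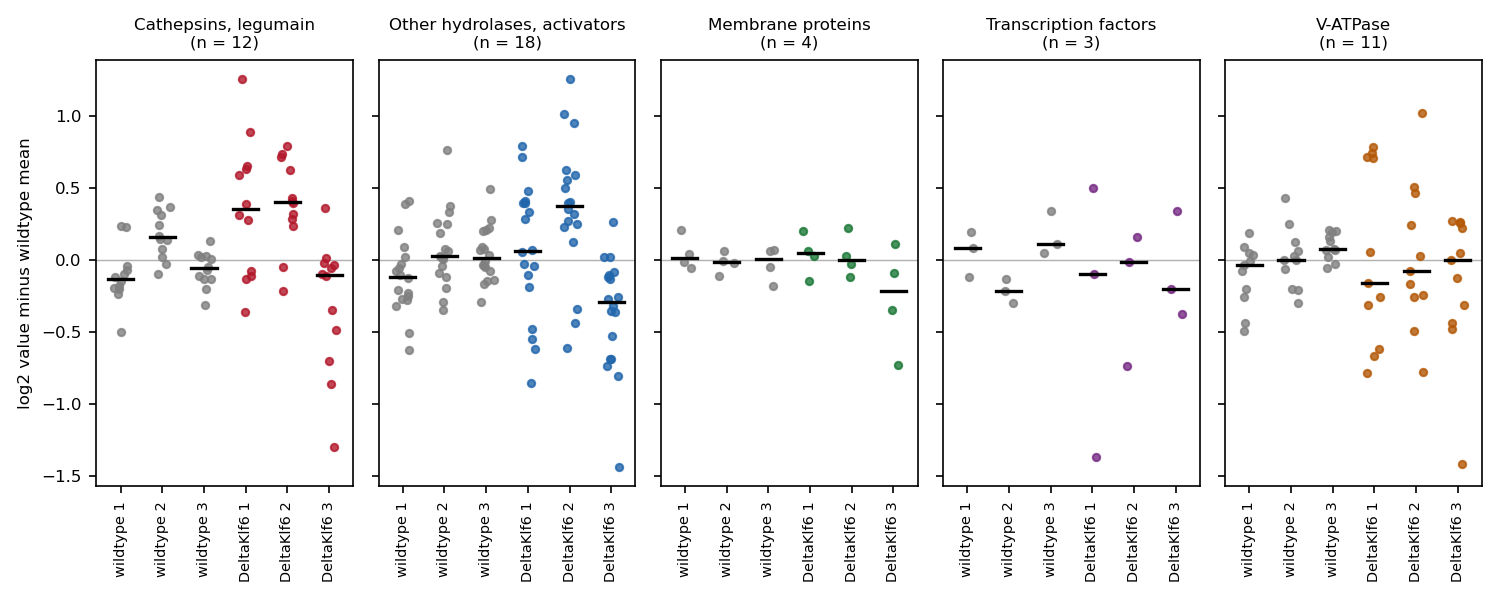
Log2 value minus the wildtype mean (vertical axis) on each of the 6 arrays, 1 panel per class; each point is a gene and the black line is the class median. The medians of cathepsins and other hydrolases stand highest on DeltaKlf6 2 (0.40 and 0.37) and below the wildtype mean on DeltaKlf6 3 (-0.11 and -0.29), while the V-ATPase class runs from -0.16 to -0.00 over the DeltaKlf6 arrays.

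The lysosomal membrane proteins had the smallest median size of difference of the 5 classes, 0.089. Of 4 measured of 5, 1 was higher and 3 lower by mean, with a median of -0.08; this count was 2 and 2 with probe sets averaged. Lamp1, a heavily glycosylated protein of the lysosomal membrane whose promoter carries 4 cores, was at 11.68, 11.53 and 11.71 in wildtype and 11.70, 11.52 and 11.55 in DeltaKlf6. Its difference was -0.05 (SE 0.20; limma adjusted p 0.996), and the groups overlapped throughout. Lamp2, which also serves chaperone-mediated autophagy, was at 11.34, 11.42 and 11.31 and then 11.38, 11.33 and 11.01 (difference -0.12, SE 0.21), and DeltaKlf6 3 was its only low array. Scarb2, the receptor that carries glucocerebrosidase to lysosomes, was at 10.31, 10.08 and 9.92 and then 10.30, 10.13 and 9.37 (difference -0.17, SE 0.29), again with DeltaKlf6 3 low. Mcoln1, a lysosomal calcium channel, was at 6.77, 6.82 and 6.89 and then 6.68, 7.04 and 6.94 (difference 0.06, SE 0.20). Lamp2 and Mcoln1 had probe sets of opposite sign.

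Among the transcription factors, Tfeb was at 4.99, 4.77 and 4.95 in wildtype and 3.54, 4.16 and 5.24 in DeltaKlf6. The difference was -0.59 (SE 0.40; unadjusted limma p 0.184, adjusted p 0.992), and the SD was 0.12 in wildtype and 0.86 in DeltaKlf6. DeltaKlf6 1 and 2 lay below every wildtype array and DeltaKlf6 3 above every one, so Tfeb RNA ran in the reverse order to Ctsb, Ctsd and Ctsl. Without DeltaKlf6 1 the difference was -0.20 and without DeltaKlf6 3 it was -1.05. Tfe3 was at 7.01, 6.52 and 6.93 and then 7.32, 6.81 and 6.62 (difference 0.09, SE 0.26), and Mitf at 6.09, 5.99 and 6.55 and then 6.11, 6.37 and 5.83 (difference -0.10, SE 0.25). Both overlapped with wildtype. TFEB acts largely through its place in the cell and its phosphorylation, which RNA does not show.

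The 16 measured members with the core motif were 9 higher and 7 lower by mean, with a median of 0.07. The 27 without it were 14 higher and 13 lower, with a median of 0.03. On the DeltaKlf6 arrays the first had medians of 0.06, 0.26 and -0.33 and the second -0.03, 0.23 and -0.13. Both sets were thus highest on DeltaKlf6 2 and lowest on DeltaKlf6 3, and the difference between them was not tested.

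V-ATPase genes were lower by mean in 7 of 11 measured of 14, with a median of -0.09, and none passed the test. The members were of mixed direction, also within the V1 sector. Atp6v1f, a V1 stalk subunit, was at 8.22, 9.14 and 8.78 in wildtype and 9.45, 9.73 and 8.71 in DeltaKlf6, a difference of 0.59 (SE 0.34; unadjusted limma p 0.127). DeltaKlf6 3 lay inside the wildtype range, which was wide (SD 0.46). Atp6v1d, another V1 subunit, was at 10.10, 10.20 and 10.11 and then 9.47, 9.65 and 10.18 (difference -0.37, SE 0.24), and its 3 probe sets were all lower by mean. Here DeltaKlf6 1 and 2 were the low arrays and DeltaKlf6 3 was within wildtype.

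Atp6v0b, a proteolipid of the V0 ring, had the order of Atp6v1d: 10.06, 9.80 and 10.17 in wildtype and 9.22, 9.23 and 10.28 in DeltaKlf6 (difference -0.43, SE 0.32). Its 3 probe sets were all lower by mean, and all are of the types shared between transcripts, so the gene has no value where shared probe sets are left out. The order of arrays held only for the probe set used. On the other 2, DeltaKlf6 3 was the lowest of its group and below all wildtype arrays, at 6.08 and 5.66. There DeltaKlf6 2 was the highest of its group, at 6.64 and 6.14. Atp6ap2, an accessory subunit also known as the prorenin receptor, was at 10.42, 10.04 and 10.26 and then 10.08, 9.99 and 9.93 (difference -0.24, SE 0.21), with 2 DeltaKlf6 arrays below all wildtype arrays. Its 3 probe sets were all lower by mean but unlike in order. On the one not shared between transcripts, DeltaKlf6 1 and 2 were above all wildtype arrays (7.71 and 7.72) and DeltaKlf6 3 was below (5.59). On the third, DeltaKlf6 3 was at 9.46, above the wildtype mean of 9.41. Atp6v0a1, the V0 subunit through which protons pass, was at 5.54, 5.15 and 5.66 and then 6.15, 5.38 and 5.71 (difference 0.30, SE 0.27), with overlapping groups. The widest spread was that of Atp6v1h, a regulatory V1 subunit, at 6.64, 7.32 and 7.26 in wildtype and 7.79, 7.54 and 5.66 in DeltaKlf6; its mean difference was -0.08 (SE 0.54), with DeltaKlf6 arrays on both sides of wildtype. It was chosen after its values were seen.

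The other lysosomal pathway genes, 90 measured of 109 listed, were 31 higher and 59 lower by mean, with a median of -0.09. That is 34.4% higher, against 48.4% of all genes and 44.6% of genes at or above the median of all values. By limma 0 passed the adjusted threshold and 6 had an unadjusted p under 0.05 (all genes 3.69%), 2 higher and 4 lower. Further hydrolases were 6 higher and 13 lower, membrane and transport proteins 5 and 13, enzyme sorting genes 7 and 15, and genes that control TFEB 4 and 15. Further V-ATPase subunits, several of them of other tissues, were 9 higher and 3 lower. Npc1, which exports cholesterol from the lysosome, was at 6.92, 6.93 and 6.77 in wildtype and 6.14, 6.58 and 4.93 in DeltaKlf6 (difference -0.99, SE 0.40). Mtor, the kinase that restrains TFEB, was at 8.72, 8.34 and 8.52 and then 7.68, 7.71 and 7.99 (difference -0.73, SE 0.21; unadjusted limma p 0.00929, adjusted p 0.992). In Npc1 and in Mtor all DeltaKlf6 arrays lay below all wildtype arrays. They are among 6 of the 90 genes with that order (all genes 5.91%). In 3 of the 90, Vps39, Atp6v0d2 and Lamtor2, all DeltaKlf6 arrays lay above all wildtype arrays (all genes 3.41%).

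The remaining genes of smallest unadjusted p in their lists were Vps39 (difference 0.51, SE 0.20) and Vps33a (-0.40, SE 0.24), which tether vesicles to the lysosome, the pump subunits Atp6v0d2 (0.65, SE 0.23) and Atp6v0a2 (-0.53, SE 0.20), the acid phosphatase Acp5 (0.46, SE 0.23), Laptm4b (-0.47, SE 0.23) and Lamtor2, a subunit of the Ragulator complex (0.46, SE 0.23). Each had a limma adjusted p of 0.992.

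Cell type markers also differed between the DeltaKlf6 arrays. The median of 14 Kupffer cell and macrophage markers, 10 higher and 4 lower by mean, was 0.02, 0.68 and -0.03 above the wildtype mean on DeltaKlf6 1, 2 and 3. The markers did not move together. Cd163, with the largest difference of the 14, was at 6.31, 6.33 and 6.79 in wildtype and 5.48, 5.20 and 5.23 in DeltaKlf6. Its difference was -1.17 (SE 0.23; limma adjusted p 0.992), and the groups did not overlap. Kupffer cells are rich in lysosomes, and on DeltaKlf6 2, where the median of these markers stood highest, the lysosomal set also stood highest. On DeltaKlf6 1 the median of the macrophage markers was near wildtype while the cathepsin median was 0.35. The 10 hepatocyte markers had medians of 0.14, 0.13 and -0.16, and the 10 stellate cell and fibroblast markers 0.28, 0.47 and -0.32, the order of the cathepsins. Sinusoidal endothelial markers had -0.08, 0.02 and -0.45, and neutrophil markers 0.03, -0.33 and 0.36. The part of cell composition in the lysosomal values was not tested.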

How the data were processed

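The submitters' processing notes name RMA and Affymetrix Expression Console 1.2.1 as the tools behind the log2 values of 6 arrays that the authors deposited. Base 2 was inferred from a highest value of 13.9, below 16, the most a 16-bit scanner allows. The authors' build and probe annotation are not given in the sources used. RNA was TRIzol-extracted and labelled with a 3′ kit per the labels' protocols. Of 45141 probe sets, 28898 carried 1 gene symbol in the platform annotation, 551 several and 15692 none. For each of 17097 genes the probe set of highest mean was used. Groups were compared with limma 3.58.1 in R 4.3.3 (lmFit, eBayes; statmod 1.5.0 for robust variances), two-sided, with Benjamini-Hochberg adjustment over all genes, and the calculation was tested on simulated data. Array number limits precision: there are 3 animals per group per the labels. Members, lists and alternatives were chosen with earlier results of these data known. Named by rule were up to 4 or 5 members per class of smallest unadjusted p, plus Tfeb, Tfe3, Mitf, Lamp1, Ctsb, Ctsd and Atp6v0c (not measured), and up to 2 genes per pathway list. A gene was called dim where its level lay under 3.36, the median of all values.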

Additional observations from a re-analysis of the deposited data

How the results depend on the processing

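In every alternative run, 0 members and 0 of all genes passed an adjusted limma p of 0.05; the smallest adjusted p of any gene was 0.177, without DeltaKlf6 3. Members at an unadjusted p under 0.05 numbered 0 with probe sets averaged (3.37% of all genes), 0 with dim genes left out (3.71%), 3 after a further quantile normalization (3.97%), 4 with array weights (5.32%), and 0 to 10 with 1 array left out (2.22% to 9.04%). With the replicate number as a block there were 0 (703 of all genes, 4.11%); same-numbered arrays deviated together at correlations of -0.00494, 0.262 and 0.0837, so the numbers were not taken as pairing and the paired fit is given here only. Members whose groups did not overlap numbered 5 after quantile normalization (9.46% of all genes) and 3 to 25 with 1 array left out (16.4% to 25.3%). With array weights the median was -0.18 for V-ATPase, 0.19 for cathepsins and 0.19 for other hydrolases; with shared probe sets left out the cathepsin median was 0.17. With 1 array left out, class medians ranged from -0.03 to 0.26 (cathepsins), -0.08 to 0.27 (other hydrolases), -0.15 to 0.018 (membrane proteins), -0.24 to 0.065 (transcription factors) and -0.20 to -0.047 (V-ATPase). Of 23 named members 16 kept their sign in each alternative that gave them a value; Atp6v0b had none with shared probe sets left out. Lamp2 was at 0.074 with probe sets averaged, Mcoln1 at -0.067 with shared probe sets left out and Mitf at 0.0063 after quantile normalization. With 1 array left out, Ctsd ranged from -0.032 to 0.30, Ctsf from -0.67 to 0.12, Scarb2 from -0.35 to 0.11, Mcoln1 from -0.016 to 0.16, Tfe3 from -0.11 to 0.24 and Mitf from -0.24 to 0.065. The following kept their sign with 1 array left out. Ctsl ranged from 0.33 to 0.98, Ctsb from 0.15 to 0.52 and Ctsk from 0.07 to 0.50. Glb1 ranged from 0.16 to 0.67, Asah1 from 0.30 to 0.67 and Arsa from -0.68 to -0.32. Tfeb ranged from -1.05 to -0.20, Lamp1 from -0.10 to -0.013 and Lamp2 from -0.19 to -0.0016. Atp6v1f ranged from 0.34 to 0.88, Atp6v1d from -0.58 to -0.22 and Atp6v0b from -0.78 to -0.26. Atp6v0a1 ranged from 0.093 to 0.48 and Atp6ap2 from -0.34 to -0.15. The causes were not tested.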
